A study of Saccharomyces cerevisiae Sigma1278b with 62 samples.

Results

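The asc1-DE allele of budding yeast carries a double substitution in Asc1, R38D and K40E, that weakens the binding of the protein to the ribosome in gradients, though crosslinking shows mutant protein on ribosomes in cells. It was profiled against its matched wild type (WT) in 8 of the 62 libraries of the series, chosen as the poly(A)-tailing columns of the mutant count table. These are 2 footprint (FP) libraries and 2 total RNA libraries of asc1-DE, and the same number of WT. An FP is the mRNA fragment protected by a translating ribosome, total RNA was poly(A)-selected mRNA from the same cell extract, and translation efficiency (TE) is the ratio of FP to total RNA. The question was how translation changes, gene by gene, when Asc1 carries these substitutions.

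Both strains had the Sigma1278b background and were grown to log phase in YPAD with 2% glucose at 30˚C. Cells received 0.1 mg/ml cycloheximide, an elongation inhibitor, for 2 minutes before they were cooled and lysed without freezing. Both asc1-DE replicates came from 1 strain, so any other difference between that strain and WT cannot be told apart from the allele. A point mutation cannot be checked from gene counts. The FP libraries held 5091889 to 7167216 reads and the total RNA libraries 1719206 to 2455698. Replicates of a group were not copies of 1 library, since the variance between their counts was 7.31 to 10.7 times that of sampling noise (chi-square over degrees of freedom). The study calls the replicates biological, and the labels give only their numbers.

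Asc1 is the yeast homologue of RACK1, a WD-repeat protein that sits on the head of the small ribosomal subunit near the mRNA exit channel. It is known for roles in signalling, in translation of short mRNAs and in the quality control of stalled ribosomes. Loss of Asc1 is known to alter growth and stress-related programmes.

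ASC1 itself had more FPs in asc1-DE. Its FP counts, scaled within library type to a common median ratio, were 27055 and 27396 in WT and 41939 and 36814 in asc1-DE. The scaled total RNA counts of ASC1 were 9110 and 8737 in WT against 11953 and 13652 in asc1-DE. Both mutant libraries stood above both WT libraries in each readout. The fitted log2 change of ASC1 was 0.54 (SE 0.091) in FP and 0.52 (SE 0.16) in total RNA, and neither passed adjustment over all genes (edgeR quasi-likelihood, adjusted p = 0.34 and 1.0). The FP change of ASC1 passed in 6 of 11 alternatives, among them DESeq2 (adjusted p = 1.3e-05) and library size alone (0.0035), and adjusted p ranged up to 1.0, without WT replicate 2. Its TE was level, with a log2 change of 0.01 (95% interval -0.36 to 0.39). The intron of ASC1 holds the small nucleolar RNA gene SNR24, which coding reads do not count.

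Across 4698 genes with enough reads in both library types, 1 gene passed an adjusted p under 0.05 in FP, which is 0.0213% of genes (n = 2 libraries per strain). No gene passed in total RNA or in TE by edgeR, nor by DESeq2. Without adjustment, 156 genes had p under 0.05 in FP (3.32%), 22 in total RNA (0.468%) and 33 in TE (0.702%). With DESeq2, those unadjusted counts were 97, 5 and 5, and 7 genes passed adjustment in FP, among them SSA1, HSP82, HSP104, AHA1 and ASC1 as higher and SER3 as lower. A log2 change over 1 in size was fitted for 1 gene in each readout, SNZ1 in FP and total RNA and NRT1 in TE. The 95% interval of the change lay within 2-fold in either direction for 4656 genes (99.1%) in FP, 4587 (97.6%) in total RNA and 4283 (91.2%) in TE. An interval within 1.5-fold was reached by 4186 genes (89.1%) in FP but by 1823 (38.8%) in TE. For most genes this model thus did not exclude a TE change of 1.5-fold in at least 1 direction. The model held no term for replicate number, and interval widths with such a term are not given here. The median SE was 0.11 in FP, 0.19 in total RNA and 0.23 in TE on the log2 scale.

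**Figure D1:**
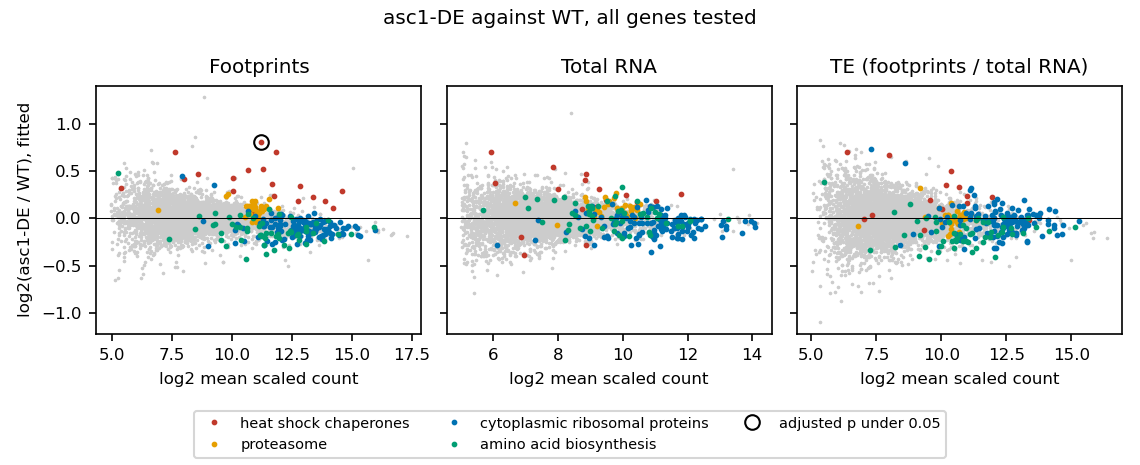
Fitted log2 change of asc1-DE against WT (y axis) by the log2 mean scaled count (x axis) in FP, total RNA and TE, with 1 point per gene tested (4698 genes) and 4 gene groups coloured. SSA1 in FP is the only circled gene, with an adjusted p under 0.05, and the chaperone points lie above 0 in FP while ribosomal protein points lie mostly below.

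The gene that passed was SSA1, a cytosolic Hsp70 chaperone. Its scaled FP counts were 1713 and 1774 in WT and 2933 and 3183 in asc1-DE, so that the strains were well apart. SSA1 FPs rose 1.76-fold, a log2 change of 0.81 (SE 0.089, edgeR adjusted p = 0.030). Total RNA of SSA1 was 180 and 272 in WT and 254 and 305 in asc1-DE, groups that overlapped, with a log2 change of 0.31 (SE 0.23). The TE of SSA1, as the ratio of scaled counts, was 9.51 and 6.52 in WT and 11.5 and 10.4 in asc1-DE, a log2 change of 0.50 (95% interval -0.07 to 1.07). The FP call ended when a WT replicate was left out, with an adjusted p of 0.39 without WT replicate 1 and 0.99 without WT replicate 2, though the log2 change stayed at 0.78 and 0.84. SSA1 has a near-identical paralogue, SSA2, and only uniquely mapped reads were counted, so the SSA1 and SSA2 values are uncertain to that extent. SSA2 FPs were 18204 and 18652 in WT and 20480 and 19195 in asc1-DE.

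The other heat shock chaperones lay on the same side in FP. The heat shock chaperones hold Hsp70 and Hsp90 proteins, their co-chaperones and the disaggregase Hsp104, which fold and rescue proteins, and many of their genes are driven by heat shock factor. Of 22 listed genes, 19 had enough reads. The FP change was above 0 for 19 of the 19 in pair 1 and for 19 in pair 2, where a pair is the asc1-DE and WT library of 1 replicate number. Both mutant libraries exceeded both WT libraries for 17 of the 19, against 16.3% of all genes. An unadjusted p under 0.05 with a higher FP count was found for 13 of the 19, against 1.30% of all genes, and 1 passed adjustment. These genes were on the list with earlier results of these data known. The median log2 FP change was 0.40 in pair 1 and 0.22 in pair 2, against 0.00 for all genes in each.

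HSP82, the inducible Hsp90, had 2641 and 2863 scaled FPs in WT and 4744 and 4219 in asc1-DE. Its log2 FP change was 0.71 (SE 0.095), just short of the threshold (edgeR adjusted p = 0.083). The constitutive paralogue HSC82, which shares much of its sequence and had the most reads of the group, measured 23238 and 20471 in WT and 28835 and 24517 in asc1-DE. HSP104 had 1934 and 2245 FPs in WT and 2907 and 3098 in asc1-DE, a log2 change of 0.53 (SE 0.099, adjusted p = 0.40). AHA1, which activates the Hsp90 ATPase, had 1266 and 1420 in WT and 1930 and 1885 in asc1-DE, a log2 change of 0.51 (SE 0.092, adjusted p = 0.40). In each of these 4 genes the mutant libraries lay above both WT libraries.

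HSP78, the mitochondrial disaggregase, had 846 and 948 FPs in WT and 1167 and 1240 in asc1-DE, a log2 change of 0.43. For HSP42, a small heat shock protein, the counts were 125 and 176 in WT and 211 and 273 in asc1-DE, a log2 change of 0.71. STI1, the adaptor between Hsp70 and Hsp90, had 6369 and 6514 in WT and 8729 and 7579 in asc1-DE. These 3 genes again did not overlap between strains. The exceptions to separation were HSP10, with 1731 and 1889 FPs in WT and 1887 and 1895 in asc1-DE, and BTN2, where asc1-DE replicate 2 (337) fell between the WT libraries (347 and 305) while asc1-DE replicate 1 reached 573. SSA3, HSP26 and HSP12 were below the read minimum.

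**Figure D2:**
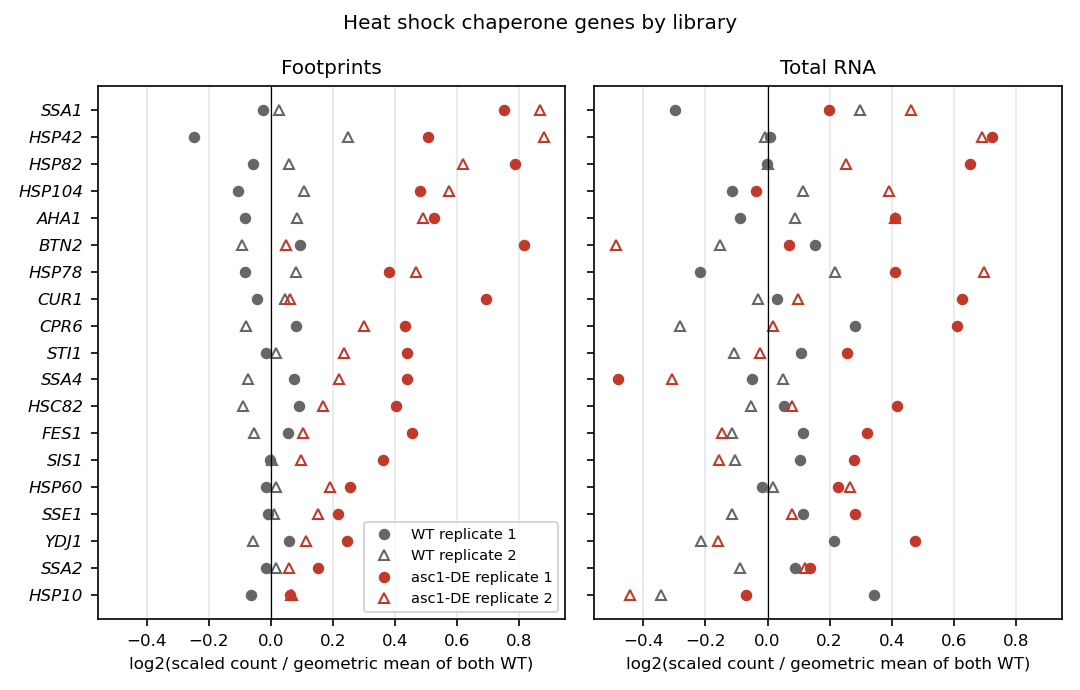
log2 of the scaled count over the geometric mean of both WT libraries (x axis) for the 19 heat shock chaperone genes tested (y axis), in FP and total RNA, with 1 symbol per library. In FP the red asc1-DE symbols lie right of the grey WT symbols for 17 of the 19 genes, and in total RNA for 8.

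Total RNA of the chaperones leaned the same way with wider scatter. The median log2 change was 0.24 in pair 1 and 0.16 in pair 2, 16 of the 19 genes had a mean change above 0 against 49.7% of all genes, and 8 were separated upward against 10.1% of all genes. HSP82 total RNA measured 386 and 387 in WT and 608 and 460 in asc1-DE. TE changes were smaller still, with medians of 0.14 and 0.12 in the pairs, 15 of 19 above 0 against 50.9% of all genes, and 8 separated upward against 11.2%. No chaperone passed adjustment in total RNA or TE. In total RNA, 9 of the 19 chaperone genes also passed an adjusted p under 0.05 as lower in replicate 2 than in replicate 1, against 14.7% of all genes, and 3 as higher, against 11.5%. In FP that comparison had 1 call, a lower one, against 1.09% of all genes. The part of this replicate difference in the strain values was not tested.

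General stress genes were also measured, and the difference from the chaperones was not tested. Of 16 tested genes for trehalose, glycogen and stress defence, 11 had a mean FP change above 0, against 50.8% of all genes. In this group 1 was separated upward, against 16.3%, and none downward, against 17.5%. In FP 5 of the 16 were called higher in replicate 2 than in replicate 1, against 2.02% of all genes. The median log2 difference between numbers was 0.28 in WT and 0.37 in asc1-DE, and its part in the separation was not tested. Their median log2 FP change was 0.03 in pair 1 and 0.08 in pair 2. UGP1, which makes UDP-glucose and had the most reads, measured 2760 and 2834 FPs in WT and 2792 and 3031 in asc1-DE. PGM2, a phosphoglucomutase with the smallest p of the group, had 33 and 42 in WT and 34 and 76 in asc1-DE, a log2 change of 0.59 (SE 0.37) with asc1-DE replicate 1 between the WT libraries.

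Proteasome genes were slightly higher, and none passed adjustment. The proteasome degrades ubiquitin-tagged proteins, and 34 subunit and regulator genes were tested. In FP 31 had a mean change above 0 against 50.8% of all genes, and 22 had both mutant libraries above both WT libraries against 16.3% of all genes, with none separated downward. The median log2 FP change was 0.05 in pair 1 and 0.16 in pair 2, and in total RNA it was 0.10 and 0.12. RPN2, a base subunit with the smallest p of the group, had 2846 and 2741 FPs in WT and 3189 and 3237 in asc1-DE, a log2 change of 0.21 (SE 0.083, edgeR adjusted p = 0.99). RPN1, a base subunit with the most reads, had 3885 and 3631 in WT and 4087 and 3989 in asc1-DE. UBI4, the polyubiquitin gene induced by stress, had 954 and 963 in WT and 1227 and 1341 in asc1-DE, a log2 change of 0.43 (SE 0.090, adjusted p = 0.67). TE of the proteasome genes was centred on 0, with 17 of 34 above it.

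Ribosomal protein (RP) genes showed slightly fewer FPs. Cytoplasmic RPs build both ribosomal subunits. Their share of FP reads was 20.7% and 20.5% in WT and 20.1% and 19.8% in asc1-DE. Of 131 tested genes, 118 had a mean FP change below 0 and 77 were separated downward, against 17.5% of all genes. With an unadjusted p under 0.05, 16 were lower, against 2.02% of all genes, and none passed adjustment. The median log2 FP change was -0.07 in pair 1 and -0.14 in pair 2. RPL3 had 65527 and 65442 FPs in WT and 62898 and 57535 in asc1-DE. RPS9A, with the smallest p, had 1271 and 1209 in WT and 1016 and 1049 in asc1-DE, a log2 change of -0.26 (SE 0.086, edgeR adjusted p = 0.99). Most RPs have a near-identical second copy, so single RP values are uncertain. RP total RNA was also lower, with medians of -0.09 and -0.04, while the TE medians were 0.00 and -0.09.

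FP changes also differed with the level of a gene. Tested genes were put into 5 groups of like size by FP level. In the group with the most FPs, 303 of 940 genes were separated downward, against 17.5% of all genes, and 90 upward, against 16.3%. The other 4 groups, of 939 or 940 genes each, had 122 to 138 genes separated downward and 162 to 184 upward. The median log2 FP change was -0.05 in the group with the most FPs and 0.01 to 0.03 in the other 4. Scaling by library size alone moved the median log2 FP change of all genes to 0.07 and that of the RPs to -0.04. With it 44 of 131 RP genes lay above 0 in place of 13, against 3418 of all 4698 genes. RP genes separated downward then numbered 40, against 351 of all genes. Other abundant groups leaned the same way. All 6 tested ribosome-associated chaperones, which meet the nascent chain, were below 0 in both pairs, against 1280 of all 4698 genes. With library size alone 1 of the 6 lay above 0, against 3418 of all 4698 genes, and their median moved from -0.11 to -0.04. Among the 6 were SSB1, with 17297 and 17895 FPs in WT and 16701 and 16016 in asc1-DE, and EGD1, with 7393 and 8617 in WT and 7021 and 6232 in asc1-DE. Of 12 elongation and termination factors, 10 had a mean below 0 and 5 were separated downward against 17.5% of all genes. With library size alone these were 7 and 2, against 1280 and 351 of all 4698 genes. YEF3, elongation factor 3, had 83367 and 84853 in WT and 82762 and 73061 in asc1-DE. Of 21 cytosolic aminoacyl-tRNA synthetases, which charge tRNAs, 10 were separated downward against 17.5% of all genes. Their median was -0.04 in pair 1 and -0.12 in pair 2. DED81 had 7721 and 8282 FPs in WT and 7447 and 7125 in asc1-DE, and CDC60 11452 and 10986 in WT and 11334 and 10657 in asc1-DE. By library size alone, 9 of these 21 synthetase genes lay above 0 instead of 3, against 3418 of all 4698 genes. The part of FP level in the group differences was not tested.

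Amino acid biosynthesis genes were lower in FP, and none passed adjustment. Of 56 tested genes, 47 had a mean FP change below 0, 32 were separated downward against 17.5% of all genes, and 11 had an unadjusted p under 0.05 as lower, against 2.02% of all genes. With library size alone 20 were separated downward in place of 32, the median moved to -0.09, and over all genes 351 were separated downward in place of 821. The median log2 FP change was -0.11 in pair 1 and -0.18 in pair 2, that of total RNA was -0.06 and 0.05, and that of TE was -0.04 and -0.24. In TE 17 of the 56 were separated downward, against 10.3% of all genes. SER3, the first enzyme of serine synthesis, had 1638 and 1853 FPs in WT and 1261 and 1324 in asc1-DE, a log2 change of -0.43 (SE 0.095, edgeR adjusted p = 0.67). In the R64 annotation SER3 overlaps the noncoding SRG1, whose reads may enter its count. LEU1, with the most reads, had 66301 and 62900 in WT and 65370 and 55676 in asc1-DE.

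The lysine pathway, picked out after its values were seen, held genes on both sides. LYS4, homoaconitase, had 3243 and 2997 scaled FPs in WT and 2599 and 2198 in asc1-DE. LYS9, saccharopine dehydrogenase, had 3838 and 3802 in WT and 3131 and 2898 in asc1-DE. LYS2, aminoadipate reductase, had 5845 and 5980 in WT and 4981 and 4525 in asc1-DE, a log2 change of -0.31 (SE 0.087, edgeR adjusted p = 0.99). In these 3 genes both mutant libraries lay below both WT libraries, as they did in LYS12, with 2941 and 2792 in WT and 2463 and 2257 in asc1-DE, and in LYS21, with 2857 and 2987 against 2594 and 2647. The strains overlapped in LYS1, with 1508 and 1778 FPs in WT and 1369 and 1618 in asc1-DE, and in LYS20, with 1257 and 1113 against 1117 and 1111. LYS5 was higher, with 28 and 37 FPs in WT and 49 and 41 in asc1-DE. No test was run on these genes as a set.

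Glycolysis and cell wall genes were lower in FP, further so in pair 2, and none passed adjustment. Of 18 glycolytic and fermentation genes, 17 had a mean FP change below 0 and 11 were separated downward against 17.5% of all genes, with medians of -0.02 in pair 1 and -0.29 in pair 2. PDC1, pyruvate decarboxylase, had 158771 and 179210 FPs in WT and 151938 and 143779 in asc1-DE. TDH1, the stress-responsive glyceraldehyde-3-phosphate dehydrogenase, had 215 and 250 in WT and 153 and 169 in asc1-DE, a log2 change of -0.52 (SE 0.13, edgeR adjusted p = 0.99). Among 24 cell wall genes, 21 had a mean below 0 and 15 were separated downward, against the same 17.5%, with medians of -0.05 and -0.19. With library size alone 4 glycolytic and 10 cell wall genes were separated downward, against 351 of all 4698 genes. Their medians over both pairs were then -0.09 and -0.07 in place of -0.16 and -0.14. CCW12, an abundant mannoprotein, had 50232 and 70834 in WT and 44942 and 43841 in asc1-DE, so that WT replicate 2 stood highest. TIR3, a cold-shock and anaerobic mannoprotein, had 279 and 310 in WT and 184 and 215 in asc1-DE, a log2 change of -0.55 (SE 0.13, adjusted p = 0.75).

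**Figure D3:**
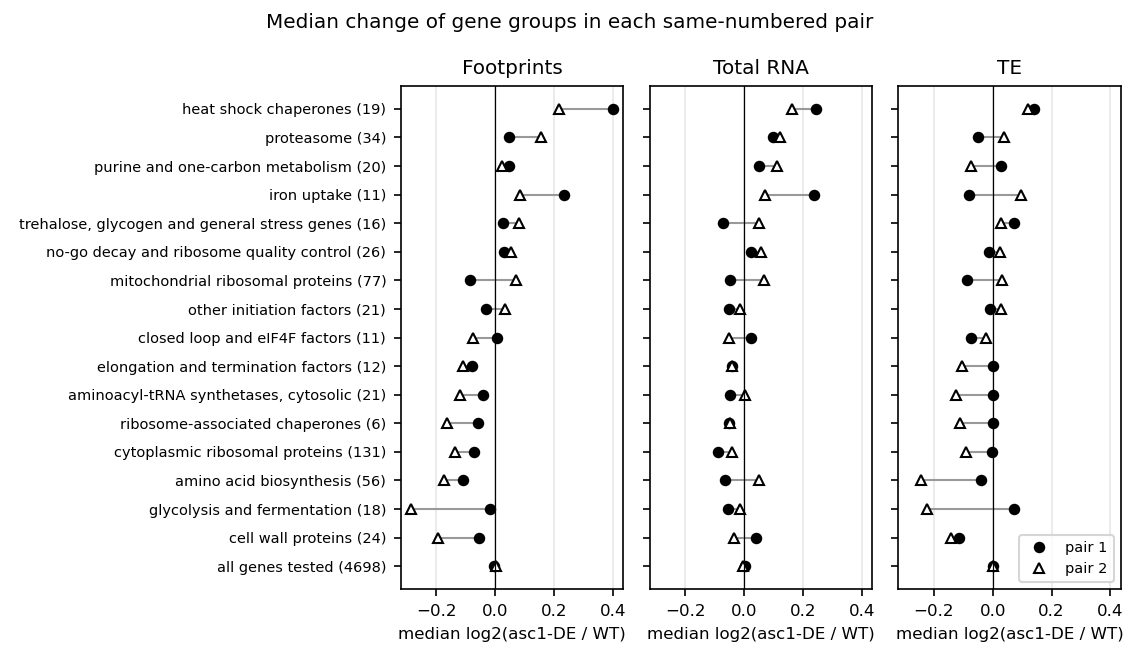
Median log2 change of asc1-DE against WT (x axis) for 16 gene groups and all genes tested (y axis, number of genes in brackets) in FP, total RNA and TE, with filled circles for pair 1 and open triangles for pair 2. Heat shock chaperones stand highest in FP, at 0.40 and 0.22, and glycolysis, cell wall and amino acid biosynthesis genes lowest in pair 2, at -0.29, -0.19 and -0.18.

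SNZ1 had the largest fitted change in both FP and total RNA. It encodes an enzyme of vitamin B6 synthesis. Its scaled FP counts were 205 and 339 in WT and 460 and 836 in asc1-DE, and its total RNA counts were 179 and 245 in WT and 440 and 482 in asc1-DE. Both mutant libraries exceeded both WT libraries in each readout. SNZ1 was 2.44-fold higher in FP, a log2 change of 1.29 (SE 0.28, edgeR adjusted p = 0.67), and its total RNA log2 change was 1.12 (SE 0.20, adjusted p = 1.0). Its TE log2 change was 0.15 (95% interval -0.79 to 1.08). SNZ1 FPs also differed between replicate numbers within strains, with a log2 difference of 0.81 for number 2 against 1 (adjusted p = 8.1e-10). SNO1, its partner in vitamin B6 synthesis, was below the read minimum, which its total RNA missed, with scaled counts of 9 and 13 in WT and 20 and 34 in asc1-DE. Its scaled FP counts were 25 and 46 in WT and 51 and 74 in asc1-DE.

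ADE17, a late enzyme of purine synthesis, and GCV1, of the glycine cleavage system, were placed in the same way. ADE17 had 170 and 343 FPs in WT and 286 and 623 in asc1-DE, a log2 change of 0.87 (SE 0.37, edgeR adjusted p = 0.99). GCV1 had 178 and 316 in WT and 306 and 516 in asc1-DE, a log2 change of 0.77 (SE 0.28, adjusted p = 0.99). For both genes asc1-DE was higher in each pair, but asc1-DE replicate 1 lay below WT replicate 2. The difference between replicate numbers was as large, with a log2 of 1.08 for ADE17 and 0.78 for GCV1 in FP (adjusted p = 8.8e-13 and 1.5e-07). With 1 replicate left out, the log2 FP change ranged from 0.19 to 1.43 for ADE17, 0.34 to 1.21 for GCV1 and 0.79 to 1.67 for SNZ1, lowest without asc1-DE replicate 2 and highest without WT replicate 2. Total RNA had fitted log2 values of 0.21 (SE 0.24) for ADE17 and 0.39 (SE 0.18) for GCV1.

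Purine and one-carbon genes as a group were centred near 0. Of 20 tested genes, 3 were separated upward, against 16.3% of all genes, and 4 downward, against 17.5%. The list also held SNZ1, of vitamin B6 synthesis, which was among those separated upward. The median log2 FP change was 0.05 in pair 1 and 0.02 in pair 2. GUA1, GMP synthase, with the most reads, had 6101 and 6046 FPs in WT and 5974 and 5835 in asc1-DE. In the iron uptake group 8 of 11 genes had a mean FP change above 0, against 50.8% of all genes, and 5 were separated upward, against 16.3%, with medians of 0.23 and 0.08. FET3, a multicopper oxidase, measured 3415 and 3245 in WT and 3497 and 2839 in asc1-DE. ENB1, a siderophore transporter, had 338 and 360 total RNA counts in WT and 509 and 463 in asc1-DE, a log2 change of 0.48 (SE 0.16, edgeR adjusted p = 1.0).

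In the remaining groups no gene passed adjustment. Among 26 genes of no-go decay and ribosome quality control, the pathways in which Asc1 is known to act on stalled ribosomes, 18 had a mean FP change above 0 against 50.8% of all genes, 8 were separated upward against 16.3% and 2 downward against 17.5%, with medians of 0.03 and 0.06. CDC48, the segregase ATPase, had 12791 and 13084 FPs in WT and 13033 and 13700 in asc1-DE, and its cofactor NPL4 had 684 and 664 in WT and 754 and 778 in asc1-DE. Among 11 closed-loop and eIF4F genes, 1 was separated upward and 1 downward, against the same 16.3% and 17.5%. PAB1, the poly(A)-binding protein, had 15882 and 15761 in WT and 15965 and 13979 in asc1-DE, and TIF2, a near-identical copy of TIF1 for eIF4A, had 191 and 179 total RNA counts in WT and 245 and 184 in asc1-DE.

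Of 21 other initiation factors, 3 were separated upward and 5 downward, against 16.3% and 17.5% of all genes. DED1, a helicase, had 11239 and 11098 FPs in WT and 10992 and 10423 in asc1-DE, and GCN3, an eIF2B subunit, had 524 and 445 in WT and 555 and 551 in asc1-DE. The 20 genes for Asc1, its partners and G-protein and cAMP signalling had medians of 0.03 in pair 1 and 0.00 in pair 2. Filamentous growth genes numbered 14, of which 2 were separated upward and 3 downward, against those same shares of all genes. MSB2, a signalling mucin, had 4666 and 5423 FPs in WT and 4513 and 4191 in asc1-DE, and PHD1, a transcription factor of this pathway, 175 and 187 in WT and 137 and 149 in asc1-DE.

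Mitochondrial RPs, many of them encoded by short mRNAs, were centred on 0. Of 77 genes, 39 had a mean FP change above 0, against 50.8% of all genes. Of the same 77, 9 were separated upward, against 16.3% of all genes, and 16 downward, against 17.5%. The medians were -0.08 in pair 1 and 0.07 in pair 2, opposite in sign. MRP8, the listed gene with the most reads, had 890 and 771 FPs in WT and 941 and 916 in asc1-DE. Whether its product belongs to the mitochondrial ribosome was not checked here. The TE medians of the group were -0.09 and 0.03. MRPS8, with the smallest p of the group, had a TE log2 change of 0.46 (SE 0.21, edgeR adjusted p = 1.0).

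TE change was near 0 in each class of gene length. For 422 tested genes of up to 500 nt the median log2 TE change was -0.04 in pair 1 and -0.01 in pair 2, and for 707 genes over 2500 nt it was 0.07 and 0.02. In between, the medians over both pairs were -0.02 above 500 and up to 1000 nt, 0.00 up to 1500 nt and 0.01 up to 2500 nt. In asc1-M1X, fitted medians of the shortest and longest classes were -0.20 and 0.11, and in asc1-DE they were -0.0050 and 0.04. These lengths are of the S288C reference genes, introns included.

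The asc1-M1X and asc1-D109Y alleles were profiled against the same WT strain in another experiment of the series. The asc1-M1X allele replaces the start codon and makes no Asc1, while asc1-D109Y is another substitution that weakens ribosome binding in gradients. Those libraries used adapter ligation and frozen pellets, so alleles and library protocols differ together, and each allele is given against its own WT. With 4696 genes shared, 4 passed an edgeR adjusted p under 0.05 for a difference in TE change between asc1-DE and asc1-M1X (0.0852%). Without adjustment, 429 had p under 0.05 (9.14%). The largest difference was ASC1 itself, a log2 of 6.71 (SE 0.23, edgeR adjusted p = 1.6e-10), since its FP change was -7.47 in asc1-M1X. The others were SHM2, cytosolic serine hydroxymethyltransferase, at -2.08 (SE 0.29), AMN1, a mitotic exit regulator, at 1.59 (SE 0.22), and AYT1, an acetyltransferase, at -2.08 (SE 0.30), each with an adjusted p of 0.0062.

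SHM2 FPs were 1205 and 1430 in WT and 1304 and 1507 in asc1-DE, with total RNA of 1764 and 2169 in WT and 1878 and 2331 in asc1-DE. The log2 TE change of SHM2 was thus 0.00 (SE 0.23) in asc1-DE, against 2.07 (SE 0.14) in asc1-M1X. AMN1 FPs were 133 and 150 in WT and 141 and 158 in asc1-DE. Its log2 TE change was 0.15 (SE 0.21) in asc1-DE and -1.44 (SE 0.14) in asc1-M1X. AYT1 had 83 and 78 FPs in WT and 65 and 68 in asc1-DE, and its log2 TE change was -0.72 (SE 0.26) in asc1-DE and 1.34 (SE 0.17) in asc1-M1X. When glucose WT replicate 1 or either asc1-M1X replicate was left out, ASC1 was the only gene of the 4 that passed in each case. AMN1 was also lost without glucose WT replicate 2, and AYT1 without asc1-DE replicate 2 and without either poly(A)-tailing WT replicate. DESeq2 gave no adjusted p for AYT1.

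Against asc1-D109Y, no gene of 4695 differed in TE change by edgeR or by DESeq2, with 55 (1.17%) and 18 genes at an unadjusted p under 0.05. The 95% interval of that difference lay within 2-fold for 3928 genes (83.7%) and within 1.5-fold for 1422 (30.3%). For SHM2 the difference was -0.47 (95% interval -1.14 to 0.21) and for ADE17 -0.26 (-1.79 to 1.28), so differences up to those bounds were not excluded. ASC1 FPs were higher than in WT in asc1-D109Y as in asc1-DE, with fitted log2 changes of 0.60 and 0.54.

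**Figure D4:**
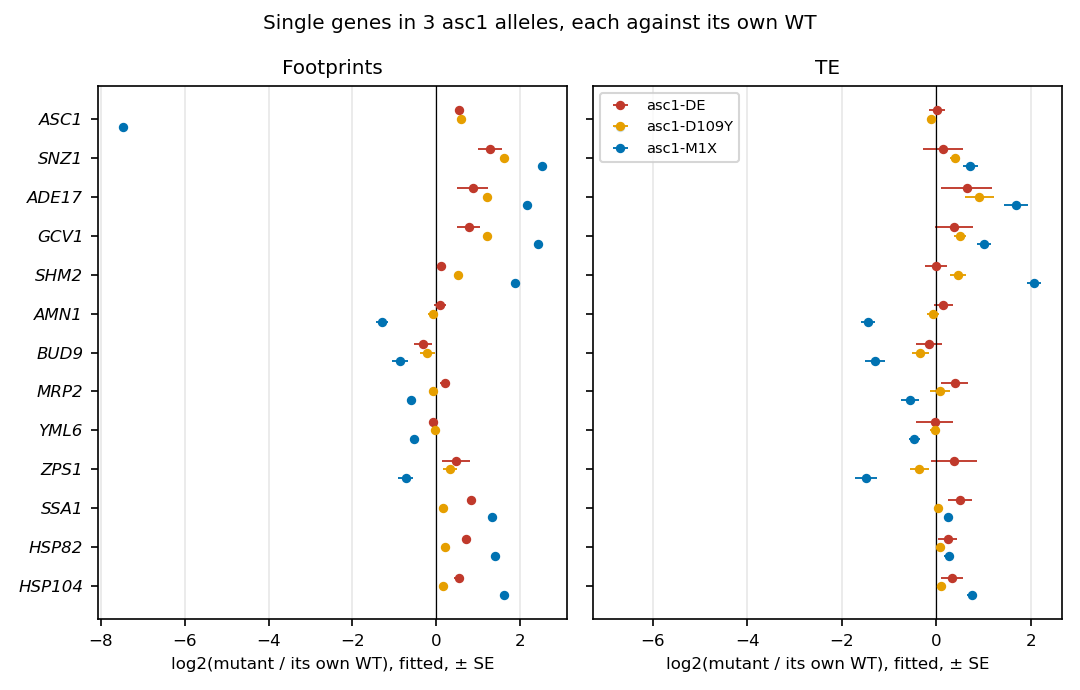
Fitted log2 change of each mutant against its own WT (x axis, bars are ± SE, n = 2 libraries per strain and type) for 13 genes (y axis) in FP and TE, with asc1-DE in red, asc1-D109Y in orange and asc1-M1X in blue. In FP ASC1 in asc1-M1X lies furthest from 0, on the lower side. SNZ1, ADE17 and GCV1 lie further above 0 in asc1-M1X than in the other alleles in FP. AMN1 and SHM2 in asc1-DE lie at 0.15 and 0.00 in TE.

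A list of 11 genes taken for TE changes in the asc1 null mutants had 9 genes with enough reads here, and JLP1 and SCW11 were below the minimum. None passed in asc1-DE. The log2 FP change of SNZ1 was 1.29 in asc1-DE, 1.61 in asc1-D109Y and 2.53 in asc1-M1X. ADE17 measured 0.87, 1.21 and 2.15 in that order of alleles, and GCV1 0.77, 1.20 and 2.43. With all 3 genes, leaving out WT replicate 2 took the asc1-DE value above that of asc1-D109Y, to 1.67, 1.43 and 1.21. BUD9, a bud-site landmark, had 53 and 66 FPs in WT and 45 and 48 in asc1-DE, and its TE log2 change was -0.15 (SE 0.28). MRP2 and YML6, mitochondrial RPs, had TE log2 changes of 0.39 (SE 0.29) and -0.03 (SE 0.39), and ZPS1, a zinc-regulated cell surface protein, 0.38 (SE 0.49). In asc1-M1X these 4 genes had TE log2 changes of -1.30, -0.56, -0.47 and -1.48. The list was chosen with TE values of the null mutants in this series known, and is no independent evidence.

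Chaperone FPs in the other alleles are given for the same 19 genes, with no test of the difference. The fitted median log2 FP change was 0.34 in asc1-DE, 0.08 in asc1-D109Y and 0.64 in asc1-M1X. SSA1 measured 0.81, 0.17 and 1.33, and HSP104 measured 0.53, 0.16 and 1.61 in the same order. The proteasome medians were 0.11, 0.00 and 0.18. For amino acid biosynthesis genes the medians were -0.15, 0.09 and 0.02, so asc1-DE stood lowest of the alleles in this group.

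In total RNA the 10 genes with the smallest p and a like sign in both pairs were SNZ1, ASC1, HSP42, ANB1, FDO1, ENB1, TIR3, HSP78, YLR456W and SRB6, each with an edgeR adjusted p of 1.0. ANB1, the hypoxic eIF5A gene, measured 258 and 273 in WT and 194 and 174 in asc1-DE, a log2 change of -0.53 (SE 0.17). FDO1 had 152 and 137 in WT and 91 and 104 in asc1-DE. SRB6, a Mediator subunit, had 166 and 159 in WT and 125 and 115 in asc1-DE, and YLR456W had 51 and 47 in WT and 66 and 81 in asc1-DE. HSP42 measured 46 and 46 in WT and 76 and 74 in asc1-DE. These small counts did not overlap between strains, but the genes were picked for a small p and a like sign in both pairs. Their lack of overlap is thus no support of its own. Of all genes, 10.1% were separated upward in total RNA and 9.54% downward.

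In TE the corresponding 10 genes were MRS4, VPS54, STB1, VAM6, SSA4, OAZ1, NFI1, AYT1, NMA2 and NRT1, again with adjusted p of 1.0. MRS4, a mitochondrial iron carrier, had 87 and 95 FPs in WT and 58 and 58 in asc1-DE, with total RNA of 64 and 60 against 72 and 74. Its TE log2 change was -0.88 (SE 0.24). VPS54, of a vesicle-tethering complex, had 260 and 296 FPs in WT and 319 and 334 in asc1-DE, with total RNA of 251 and 276 against 192 and 202, and a TE log2 change of 0.65 (SE 0.18). OAZ1, ornithine decarboxylase antizyme, whose translation needs a ribosomal frameshift, had 85 and 83 FPs in WT and 112 and 106 in asc1-DE, a TE log2 change of 0.58 (SE 0.21). SSA4, an inducible Hsp70, had a TE log2 change of 0.71 (SE 0.26) on 39 and 36 FPs in WT and 51 and 44 in asc1-DE. NRT1, a nicotinamide riboside transporter, had the largest fitted TE change, -1.10 (SE 0.42), on only 42 and 59 FPs in WT and 42 and 38 in asc1-DE. The other 5 had log2 TE changes of -0.52 (NMA2) to -0.72 (AYT1), with STB1, VAM6 and NFI1 between them.

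Marker genes gave the strains the same mating type. The a-cell genes STE2, STE6 and BAR1 were at like levels in both strains, with STE2 at 4366 and 4232 FPs in WT and 4375 and 4178 in asc1-DE, STE6 at 1788 and 1883 against 1787 and 1815, and BAR1 at 2533 and 2477 against 2691 and 2357. AGA1 FPs were 591 and 836 in WT and 701 and 612 in asc1-DE, AGA2 351 and 375 against 380 and 382, MFA1 62 and 82 against 73 and 80, and MFA2 162 and 129 against 128 and 143. The alpha-cell gene MF(ALPHA)2 had 0 FP reads in each of the 4 libraries, and MF(ALPHA)1 had 0 or 1. STE3 and SAG1 were below the minimum, STE3 in total RNA, with 26 and 28 scaled counts in WT and 24 and 29 in asc1-DE, and SAG1 in FP, with 5 and 4 against 4 and 4. Of the metabolic markers, LYS2 is given above, and MET17 and ADE2 had log2 FP changes of -0.12 (SE 0.19) and 0.01 (SE 0.15). The unique-read count of MET17 may include its overlapping neighbour YLR302C.

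More genes were called between replicate numbers than between strains. Within strains, replicate 2 against replicate 1 gave 146 genes past an adjusted p of 0.05 in FP (3.11%) and 1227 in total RNA (26.1%), where the strains gave 1 and 0. These counts come from unlike models. The replicate comparison held strain in its model, while the strain comparison held no term for replicate number. With that term as a block, more genes were called between strains, as given under the alternatives at the end. The number 2 against 1 difference had a Pearson r between strains across genes of 0.36 in FP and 0.63 in total RNA, while the strain change had an r between pairs of 0.10 in FP, 0.00 in total RNA and -0.01 in TE. Genes are not independent replicates, and these values describe the libraries. What the numbers stand for, such as a day or a medium batch, is not given in the sources used here.

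Phosphate genes were among those that differed. PHO84, the high-affinity phosphate transporter, had 408 FPs in WT replicate 1 and 47 in WT replicate 2, against 554 and 27 in asc1-DE. In total RNA PHO84 measured 134 and 35 in WT and 215 and 25 in asc1-DE. Its log2 difference between numbers was -3.78 in FP and -2.50 in total RNA (edgeR adjusted p = 5.3e-36 and 1.2e-32). VTC4, of the vacuolar polyphosphate polymerase, had 1923 and 1356 FPs in WT and 2206 and 1394 in asc1-DE. Of 10 phosphate genes tested, 5 were called lower in replicate 2 in FP, against 1.09% of all genes, and none higher, against 2.02%, while none was called between strains. PHO85, the kinase of this pathway, had 485 and 505 FPs in WT and 421 and 464 in asc1-DE.

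Total RNA of short and of ribosomal genes also differed between the numbers. RP total RNA was called lower in replicate 2 for 61 of 131 genes, against 14.7% of all genes, and higher for 16, against 11.5%, with median log2 differences of -0.20 in WT and -0.20 in asc1-DE. Genes of up to 500 nt had medians of -0.22 in WT and -0.22 in asc1-DE, and genes over 2500 nt 0.08 and 0.11. In FP the medians of the shortest class were 0.01 and 0.03. TE of this class was higher in replicate 2 than in replicate 1, by a median of 0.22 in WT and 0.25 in asc1-DE. The pair medians of TE in these classes lay between -0.04 and 0.07 between strains. The part of these replicate differences in the strain comparison was not tested beyond the values given for each pair.

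**Figure D5:**
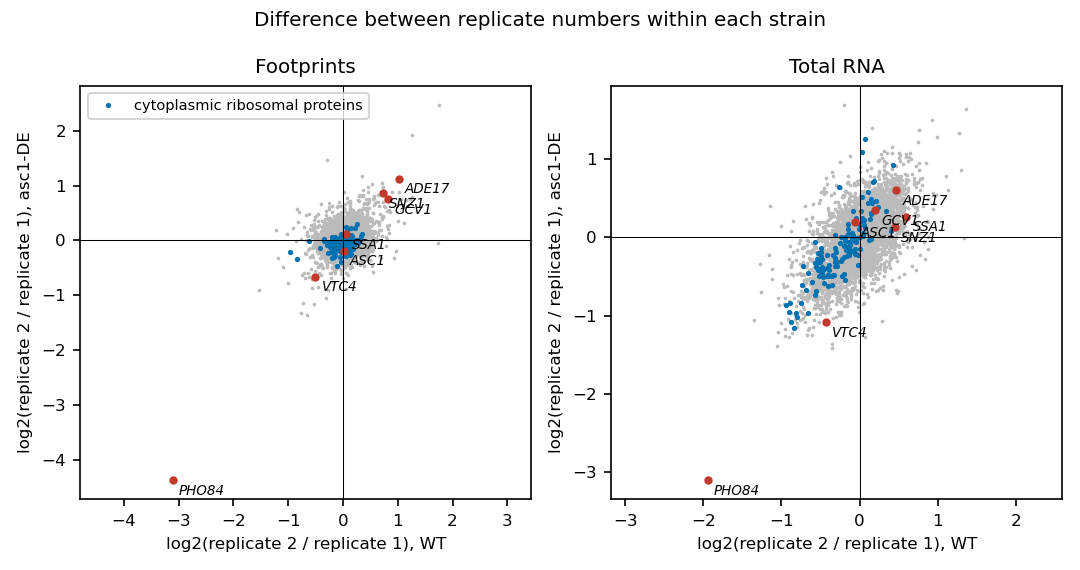
log2 of replicate 2 over replicate 1 in asc1-DE (y axis) against WT (x axis), with 1 point per gene tested, in FP and total RNA, RP genes in blue and 7 named genes in red. PHO84 lies far below 0 on both axes, ADE17, GCV1 and SNZ1 lie above 0 on both, and SSA1 and ASC1 lie near 0 in FP.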

How the data were processed

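The counts were made by the authors, who aligned FP and total RNA reads to the Sigma1278b genome with TopHat and kept uniquely mapped reads, leaving out the first codons of each open reading frame. The deposited counts per open reading frame are not normalized. Columns with no sample numbered 0. Of 5573 open reading frames 19 mitochondrial ones were left out, and 5551 of the remaining 5554 matched the RefSeq R64 table. Genes needed 128 reads over the 4 FP libraries and 128 over the 4 total RNA libraries. edgeR 4.0.16 quasi-likelihood tests with TMM within library type gave log2 changes, SE (from the F statistic), 95% intervals and Benjamini-Hochberg adjusted p over all genes, with TE as the interaction of strain and library type. Scaled counts and pair values used median-ratio size factors within library type, with 1 read added to every library of a gene that had a 0. A group is called separated where both libraries of a strain exceed both of the other. Interaction and count tests were tested on simulated data. These had the same spread for all genes and no difference between replicate numbers, so they do not show how the tests behave with such differences. DESeq2 1.42.0, other scalings, filters, blocks and left-out replicates were alternatives.

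FP and total RNA of a culture came from 1 extract by the study's methods, and their differences between numbers correlated across genes with r = 0.19 in WT and 0.15 in asc1-DE. With the culture as a block, 0 genes passed in TE. The gene members and lists were chosen with earlier results of these data known. Genes were named if they passed the threshold (up to 20), otherwise the 10 of smallest p with the same sign in both pairs, plus ASC1, the member of most reads and of smallest p in each list described, strain markers and the genes listed for the null mutants. One gene that this rule names is not reported here. HSP42, STI1, BTN2, HSP10, SSA2, SNO1, STE6, LYS4, LYS9, the other LYS genes but LYS2, and PHO84 fall outside these rules in the readout described and were chosen after their values were seen. No set test was run. No sequences or coordinates were used. Counts in FP libraries cover no molecular identifiers, so errors rest on replicates.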

Additional observations from a re-analysis of the deposited data

How the results depend on the processing

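Each count of genes past the threshold was recomputed under the alternatives. For FP (1 gene), library size alone gave 3, DESeq2 7, the spread with the glucose libraries added 7 and the replicate block by number 35 (18 higher). It was 9 without asc1-DE replicate 1, 7 without asc1-DE replicate 2 and 0 without either WT replicate. For total RNA (0 genes), the added glucose libraries gave 1 (SNZ1), the block by number 9, and leaving out 1 replicate 0 to 2, the 2 without either asc1-DE replicate. TE stayed at 0 under all 12 alternatives, with 225 genes at an unadjusted p under 0.05 under the block by number. The difference from asc1-M1X (4 genes) gave 28 with DESeq2, 253 with the block by number and 1 to 15 with 1 replicate left out, the 15 without asc1-DE replicate 1. Leaving out replicates of the glucose experiment was chosen after seeing the data. The difference from asc1-D109Y stayed at 0 under all alternatives run. Replicate numbers in FP (146 genes) gave 23 by DESeq2 and 95 with at least 10 reads in every library, and in total RNA (1227) 219 by DESeq2. The causes were not tested. What a number stands for is not given and there were 2 pairs, so calls under the block were not taken as results. Its 35 included SSA1, HSP82, HSP104, AHA1, HSP78, HSP42, STI1, CPR6, BTN2, UBI4, SNZ1, ADE17, GCV1, ASC1 and the RP genes RPL35A and RPL35B as higher and SER3, LYS2, LYS4 and LYS9 as lower.

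Some gene values turned in sign. With library size alone, FP became 0.0081 for DED1, 0.029 for GUA1, 0.039 for CDC60 and 0.061 for STE2, and TE 0.056 for SHM2 and 0.028 for YML6. SHM2 TE was 0.0012 with at least 10 reads in every library and 3.8e-05 with the block by number, and YML6 TE was 0.0048 with the culture as a block. With 1 replicate left out, FP ranged from -0.17 to 0.017 for PAB1, -0.13 to 1.05 for PGM2, -0.21 to 0.021 for LEU1, -0.23 to 0.074 for FET3, -0.23 to 0.43 for VTC4, -0.070 to 0.018 for CDC60, -0.038 to 0.029 for STE2, -0.026 to 0.23 for SHM2, -0.0073 to 0.18 for AMN1 and -0.19 to 0.027 for YML6. TE ranged from -0.18 to 0.21 for ASC1, -0.049 to 0.060 for SHM2, -0.021 to 0.70 for MRP2, -0.59 to 0.70 for YML6 and -0.27 to 0.45 for SNZ1, and total RNA from -0.0049 to 0.40 for TIF2 and -0.13 to 0.48 for ADE17.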
